A study of Mus musculus with 4 samples.

Results

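The 44 genes described here are imprinted genes of the mouse, which in at least some tissues or stages are transcribed mainly from the copy inherited from one parent. They were chosen by symbol from a list, and all 44 were found among the 26301 genes of a count table made from mouse embryonic stem cells (ESCs): 42 by the symbol of the table and 2 by Entrez identifier, Meg3 (listed under its older symbol Gtl2) and Mirg (listed without a symbol). Of the 44, 19 are classed here as maternally expressed, 23 as paternally expressed, and Gnas and Inpp5f as expressed from an allele that depends on the transcript. They fall into 10 clusters of 2 or more of these genes, and 8 genes stand alone. The cells were the lines N6, which is WT, and N8, whose genotype is Rest-/-, so that both copies of the gene for the transcriptional repressor REST are disrupted in it. Each genotype was 1 line with 2 biological replicates, and a difference between genotypes cannot be told apart from a difference between the lines. Both lines were grown with serum and LIF on irradiated embryonic fibroblast feeders and then passaged on gelatin to remove the feeders before RNA was taken. The counts do not separate the parental alleles, so a level is the sum over both. Whether each gene was imprinted in these cells was not measured.

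Imprinting is set by DNA methylation laid down in the oocyte or the sperm at germline differentially methylated regions. After fertilization the mark is kept by ZFP57, which binds a short methylated motif, with TRIM28, SETDB1 and the maintenance methyltransferase DNMT1. Within a cluster, genes of opposite parental expression often share one control region: the paternal RNA Kcnq1ot1 silences its maternally expressed neighbours in cis, and H19 and Igf2 compete for enhancers across a CTCF insulator. Many of the paternally expressed genes promote growth of the embryo and placenta and many of the maternally expressed genes restrain it. In cultured ESCs imprinted RNA levels are known to vary between lines and passages.

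Total counts were 30953863 and 27061056 in WT and 25461270 and 22293966 in Rest-/- ESCs, so that 3 counts, taken as the floor, equal 0.0969 and 0.112 CPM (counts relative to library size, scaled by edgeR's TMM method) in WT and 0.116 and 0.135 CPM in Rest-/- ESCs. Such a floor covers counting error only. Rest RNA was 255 and 233 CPM in WT and 164 and 176 CPM in Rest-/- libraries, lower in both, with a log2 fold change of -0.52 ± 0.13 (SE) and an adjusted p of 0.526 by edgeR's quasi-likelihood test. Rest RNA was thus still counted in the Rest-/- libraries, and which part of the gene is disrupted is not given in the sources used here. The summed level of 12 feeder fibroblast markers was 36.6 and 28.7 CPM in WT, and 111 and 28.3 CPM in Rest-/- libraries, with Lum at 0 counts in all 4 and 8 of the 9 markers tested above 0 in log2 fold change, from -0.18 (Thy1) to 2.35 (Postn). The sum of 12 primitive endoderm markers was 558 and 703 CPM in WT and 911 and 926 CPM in Rest-/- ESCs. Sparc, Lamb1, Col4a1 and Lama1 made up most of that sum in every library. In log2 fold change 11 of the 12 markers were above 0, up to 2.26 (Gata6), and Hnf4a was at -2.49. Both Rest-/- libraries were above both WT libraries for 8 of these 12 (66.7%, against 16.5% of all genes) and below them for 1 (8.33%, against 15.4%). The exact test of edgeR with tag-wise dispersion called 3 of the 12, and 1.79% of all genes. All 10 pluripotency markers listed were detected in every library, and their sum was 5171 and 5042 CPM in WT and 4314 and 4538 CPM in Rest-/- ESCs. Of the 10, 4 had both Rest-/- libraries below both WT libraries (15.4% of all genes did), 0 had both above (16.5% of all genes), and 2 were called by edgeR's exact test with tag-wise dispersion (1.79% of all genes). In log2 fold change 4 of the 10 were above 0, up to 0.20 (Tfcp2l1), and 6 were below. Pou5f1, at 670 to 751 CPM, was at a like level in all 4 libraries. The lowest log2 fold changes were -1.36 for Zfp42, -0.98 for Fgf4, -0.46 for Nanog and -0.44 for Klf4. The part of such cells in the values below was not tested, and in these bulk samples fewer cells of a type and less RNA per cell cannot be told apart. The libraries also differed by replicate number in both genotypes: over all 15444 genes tested, the difference of replicate 2 minus replicate 1 in log2(CPM + 0.5) in WT and in Rest-/- ESCs, which share no library, correlated with Pearson's r = 0.81, and 12748 genes had the same sign in both.

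Of the 44 imprinted genes, 43 passed edgeR's filter on low counts and Rasgrf1 did not. None of the 43 passed an adjusted p of 0.05 in edgeR's quasi-likelihood test, against 9 of the 15444 genes tested (0.0583%). At an unadjusted p under 0.05 there were 7 imprinted genes (16.3%), against 1036 of all genes (6.71%). They were Peg3, Mest, Peg12, Cdkn1c, Ascl2, Impact and Inpp5f. The study's methods name edgeR with both tag-wise and common dispersion. An exact test with tag-wise dispersion called 3 of the 43, Cdkn1c, Inpp5f and Impact, where it called 277 of all genes (1.79%). With common dispersion it called Cdkn1c and Grb10, and 343 of all genes (2.22%). DESeq2 called Cdkn1c, Inpp5f and Impact, and 238 of all genes (1.54%). A quasi-likelihood fit with the replicate number as a block called 18 of the 43 (41.9%), and 2621 of all genes (17.0%). The labels link no libraries across genotypes, and there were 2 numbers only.

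Both Rest-/- libraries were above both WT libraries for 11 of the 43 imprinted genes (25.6%), against 16.5% of all genes tested. They were below both WT libraries for 9 of them (20.9%), against 15.4% of all genes. The remaining 23 overlapped between the genotypes. Without Rest-/- replicate 1, the library with the high sum of feeder markers, 15 imprinted genes (34.9%) lay above both WT libraries, against 31.6% of all genes, and 17 (39.5%) lay below, against 32.2%. The median log2 fold change of the 43 genes was -0.0091, with 21 above 0 and 22 below, and that of all genes tested was -0.0047. With each library left out the median ran from -0.0585 to 0.13. Single values ran from -1.13 (Impact) to 2.00 (Cdkn1c).

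**Figure D1:**
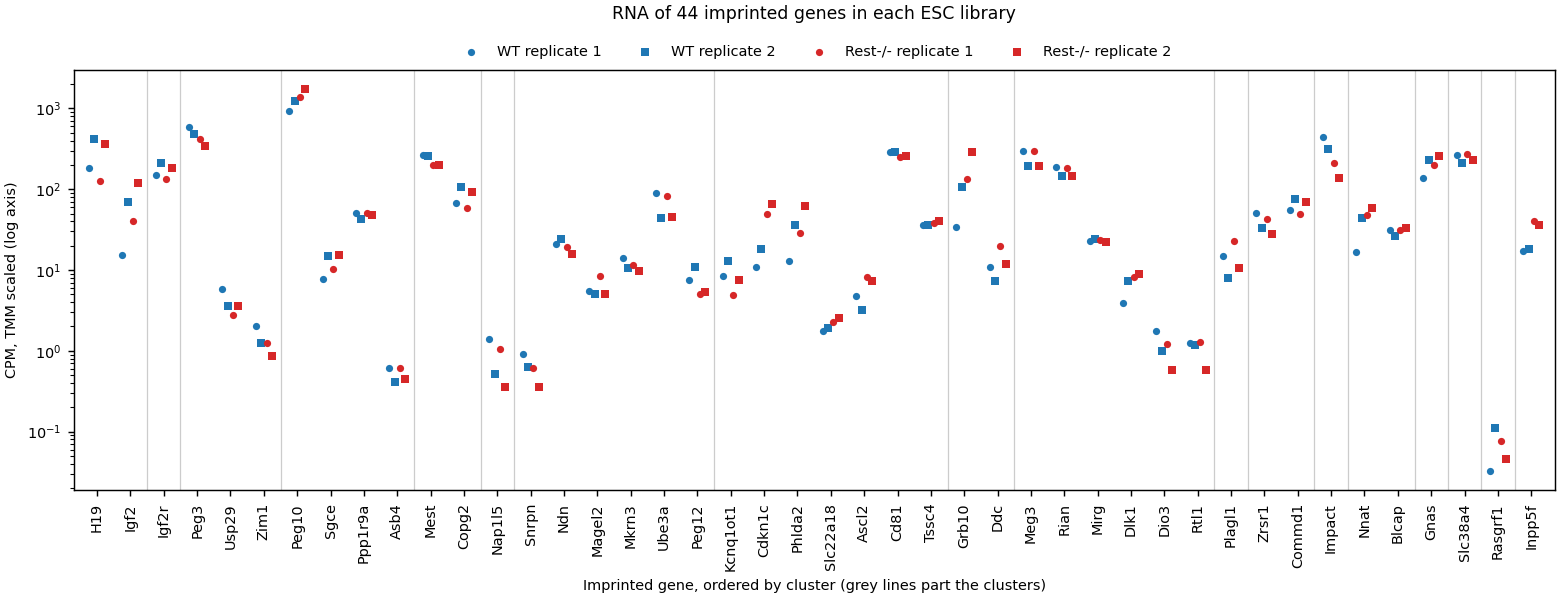
RNA level of each of the 44 imprinted genes in the 4 ESC libraries, in TMM-scaled CPM on a log axis, ordered by cluster, with blue for WT, red for Rest-/-, circles for replicate 1 and squares for replicate 2. Cdkn1c and Inpp5f have both red marks above both blue marks, Impact has both below, and for H19, Igf2 and Meg3 the marks of the same replicate number lie closer to each other than the replicates of 1 genotype.

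The genes were split by the parental allele assigned to them, which the counts do not show for these cells. The log2 fold changes of the 19 genes classed as maternally expressed had their median at 0.01, with 10 above 0 and 9 below. Of these, 6 (31.6%, against 16.5% of all genes) had both Rest-/- libraries above both WT libraries, and 1, Cd81, had both below (5.26%, against 15.4%). The 22 paternally expressed genes that passed the filter had a median of -0.31, with 9 above 0 and 13 below, and 4 of them (18.2%) had both Rest-/- libraries above and 8 (36.4%) had both below. The medians of single libraries around their gene means had an SD of 0.03 for the maternal and 0.14 for the paternal class. With each library left out, the maternal median ran from 0.0855 to 0.21, and the paternal median was as near 0 as -0.0787 (without WT replicate 1) and as low as -0.41. The difference between the classes was not tested, since genes of a cluster are not independent and no test over genes was made. Gnas and Inpp5f were at 0.32 and 1.11.

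Levels per kilobase of exon (CPM divided by the GENCODE M1 exon length) put Peg10 at the top of the list, at 163 in WT and 235 in Rest-/- ESCs. It was followed in WT by Cd81 (127), H19 (126), Impact (111), Mest (66.1), Slc38a4 (59.0) and Peg3 (40.6). The spread between the H19 libraries was so wide that H19 could not be ordered against Peg10, Cd81 or Impact. At the low end were Asb4 (0.130) and Rasgrf1 (0.0153).

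In the Kcnq1 cluster on distal chromosome 7, none of the 7 genes passed the quasi-likelihood test of edgeR, and Cdkn1c alone passed its exact tests. Of its 6 maternally expressed genes, 5 had a log2 fold change above 0 and 4 (66.7%, against 16.5% of all genes) had both Rest-/- libraries above both WT libraries, with a median of 0.65. Cdkn1c, on chromosome 7 from 150644255 to 150646955 of mm9 on the minus strand, encodes p57KIP2, an inhibitor of cyclin-dependent kinases. It had 342 and 481 counts in WT libraries and 1274 and 1470 counts in Rest-/- libraries, which is 11.1 and 18.0 CPM against 49.3 and 66.4 CPM. Every Rest-/- value lay well above every WT value. The feeder sum was above the WT values in Rest-/- replicate 1 alone, and the primitive endoderm sum was above them in both Rest-/- libraries, and their part in the Cdkn1c level was not tested. The level was 3.99-fold higher in Rest-/- ESCs, a log2 fold change of 2.00 ± 0.32 (SE), with an adjusted p of 0.244 by edgeR's quasi-likelihood test and 2.73e-05 by its exact test with tag-wise dispersion. With each library left out in turn the log2 fold change of Cdkn1c stayed between 1.68 and 2.39.

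Ascl2, a bHLH transcription factor of the trophoblast lineage, was at 4.81 and 3.17 CPM in WT and 8.24 and 7.27 CPM in Rest-/- libraries. The genotypes did not overlap, and the log2 fold change was 0.96 ± 0.33 (SE; edgeR quasi-likelihood adjusted p = 0.719). Phlda2, a pleckstrin homology domain protein that limits placental growth, was at 12.8 and 36.1 CPM in WT and 28.4 and 62.6 CPM in Rest-/- libraries. Here replicate 2 was the higher library in both genotypes and WT replicate 2 exceeded Rest-/- replicate 1, so the groups overlapped. The log2 fold change ran from 0.21 to 1.83 with each library left out. At each replicate number the Rest-/- library was the higher. Trophoblast markers summed to 136 and 209 CPM in WT and 128 and 202 CPM in Rest-/- ESCs, with Tpbpa at 0 counts. Tfap2c made up most of that sum, and 4 of the 6 markers tested were above 0 in log2 fold change. Among them Cdx2, at 0.872 and 0.896 CPM in WT and 3.79 and 1.85 CPM in Rest-/- libraries, lay above WT in both Rest-/- libraries, and Gata3, at 3.29 and 3.62 CPM in WT and 2.40 and 3.25 CPM in Rest-/- libraries, lay below. These were 1 of 6 in each direction (16.7%), near the 16.5% and 15.4% of all genes, and the part of such cells in the level of Ascl2 was not tested.

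The differences of Slc22a18, Tssc4 and Cd81 were small. Slc22a18, a transporter-like protein, was at 1.74 and 1.94 CPM in WT and 2.28 and 2.57 CPM in Rest-/- libraries. Tssc4, a splicing-related protein, was at 36.1 and 35.7 CPM in WT and 38.0 and 40.2 CPM in Rest-/- libraries. Both were a little higher in each Rest-/- library, by log2 fold changes of 0.40 ± 0.32 and 0.12 ± 0.15 (SE), of about the size of their errors. Cd81, a tetraspanin of the cell surface, went the other way at 290 and 285 CPM in WT and 248 and 260 CPM in Rest-/- libraries. Kcnq1ot1 itself was at 8.37 and 12.9 CPM in WT and 4.95 and 7.45 CPM in Rest-/- libraries. All Rest-/- values were below all WT values, the log2 fold change was -0.78 ± 0.37 (SE), and edgeR's quasi-likelihood adjusted p was 0.887. With each library left out the Kcnq1ot1 value ran from -1.11 to -0.43. The counting's strand setting is not given in the sources used here, so reads of Kcnq1ot1 and of Kcnq1, which it overlaps, cannot be told apart. Kcnq1 was at 0 and 2 counts in WT and 3 and 13 counts in Rest-/- libraries.

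**Figure D2:**
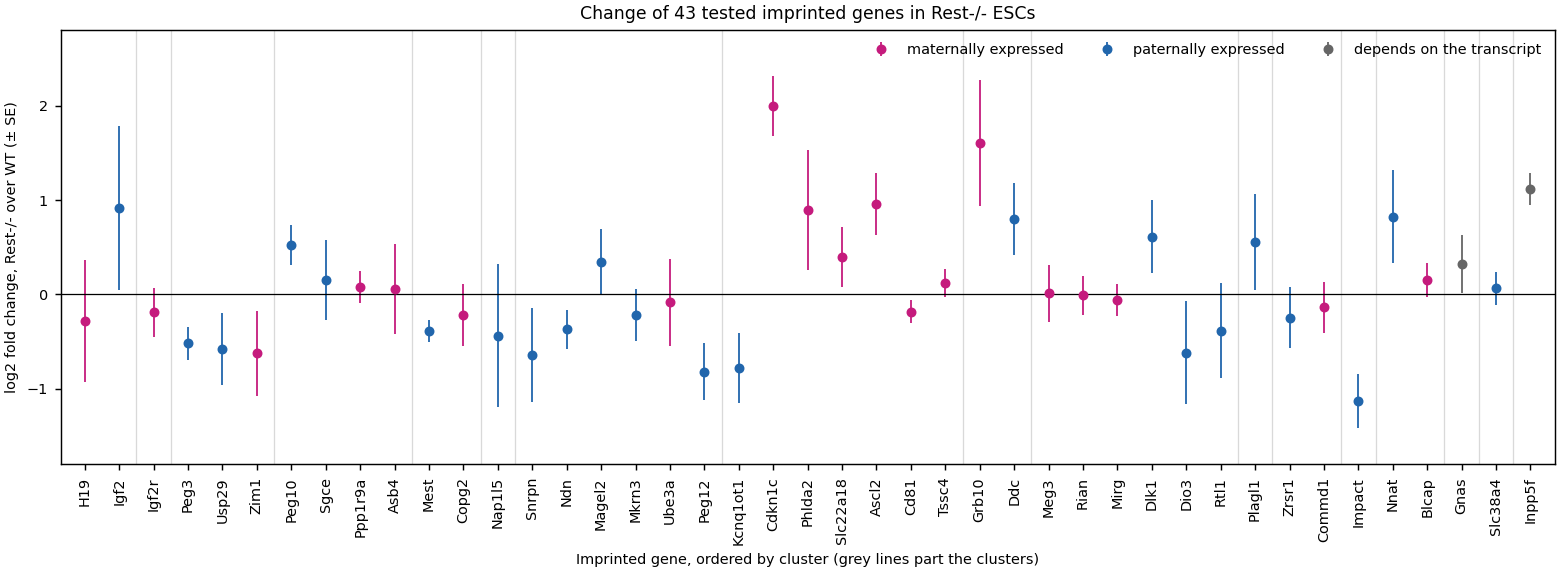
Log2 fold change of Rest-/- over WT for the 43 imprinted genes tested, with the SE of edgeR's quasi-likelihood fit (2 libraries a genotype), ordered by cluster and coloured by expressed allele. Cdkn1c (2.00) and Grb10 (1.61) lie highest and Impact (-1.13) lowest, all 3 genes of the Peg3 cluster lie below 0 and both genes of the Grb10-Ddc and Nnat-Blcap clusters lie above 0.

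In the Grb10-Ddc cluster on chromosome 11 neither gene passed the quasi-likelihood test of edgeR, and both Rest-/- libraries were above both WT libraries for the maternally expressed Grb10 and for the paternally expressed Ddc. Grb10, an adaptor that damps insulin and IGF1 receptor signalling, was at 34.3 and 105 CPM in WT and 134 and 291 CPM in Rest-/- libraries. The lowest Rest-/- value was above the highest WT value by less than the gap between the replicates of either genotype. The log2 fold change was 1.61 ± 0.67 (SE), with an adjusted p of 0.807 by edgeR's quasi-likelihood test, and it ran from 0.93 to 2.63 with each library left out. Ddc, the decarboxylase that makes dopamine and serotonin, was at 11.0 and 7.32 CPM in WT and 20.1 and 11.8 CPM in Rest-/- libraries. Its replicate 2 was the lower library in each genotype, the opposite of Grb10, and its log2 fold change was 0.80 ± 0.38 (SE; edgeR quasi-likelihood adjusted p = 0.887), from 0.38 to 1.13 with each library left out.

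The 300 bases around the first of 2 annotated Grb10 starts, from 250 before to 50 after it, are shown because this promoter is among the richest in CpG: it holds 45 CpG, and 1.93% of the 32851 promoters of the RefSeq table hold as many. The sequence is from RefSeq on GRCm38.p6, chr11:12037371-12037670 on the minus strand, and the capitals mark the ZFP57 motif, searched as TGCCGC on both strands, here as its reverse complement.
Grb10: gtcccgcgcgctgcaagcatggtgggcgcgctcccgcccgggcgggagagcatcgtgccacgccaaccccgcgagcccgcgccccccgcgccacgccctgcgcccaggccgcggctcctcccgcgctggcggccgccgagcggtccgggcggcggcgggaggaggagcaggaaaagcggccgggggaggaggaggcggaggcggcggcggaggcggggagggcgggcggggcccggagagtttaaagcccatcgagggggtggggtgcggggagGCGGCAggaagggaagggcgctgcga
Of all promoters in the table, 11.6% hold the motif, and 1.53% hold it 2 or more times. It was in the promoters of 11 of the 38 imprinted genes that had one in the table: Commd1, Copg2, Grb10, Igf2, Meg3, Mest, Nap1l5, Nnat, Plagl1, Snrpn and Zim1. By gene, 13.1% of the 27025 genes in the table hold it in at least one promoter. Of the 10 imprinted genes classed here as having their promoter in a maternally methylated germline region, 5 held it, and of the 28 others, 6 did. A match is a run of letters and not a measured site. H19, Peg10, Sgce, Cdkn1c, Rtl1 and Impact had no promoter in the table.

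Inpp5f, a phosphoinositide phosphatase of endosomes, with an imprinted short transcript that is expressed from the paternal allele, stands alone on chromosome 7, from 135754842 to 135839939 of mm9. It had 536 and 482 counts in WT and 1033 and 808 counts in Rest-/- libraries, or 17.3 and 18.0 CPM against 40.0 and 36.5 CPM. The replicates of each genotype lay close together and the genotypes far apart. The level was 2.17-fold higher, with a log2 fold change of 1.11 ± 0.17 (SE) and an adjusted p of 0.216 by edgeR's quasi-likelihood test and 0.00455 by its exact test with tag-wise dispersion. Leaving out any 1 library moved the value only between 1.05 and 1.17. The counts are per gene and do not say which transcript carried them.

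Impact, on chromosome 18, encodes a regulator of the eIF2alpha kinase GCN2 and was the imprinted gene with the lowest log2 fold change. It had 13794 and 8414 counts in WT and 5405 and 3051 counts in Rest-/- libraries, or 446 and 314 CPM against 209 and 138 CPM. Both Rest-/- values were below both WT values, and replicate 2 was the lower library in both genotypes. The level was 2.19-fold lower in Rest-/- ESCs, with a log2 fold change of -1.13 ± 0.29 (SE), an adjusted p of 0.542 by edgeR's quasi-likelihood test and one of 0.0461 by its exact test with tag-wise dispersion. With each library left out the log2 fold change ran from -1.46 to -0.86.

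**Figure D3:**
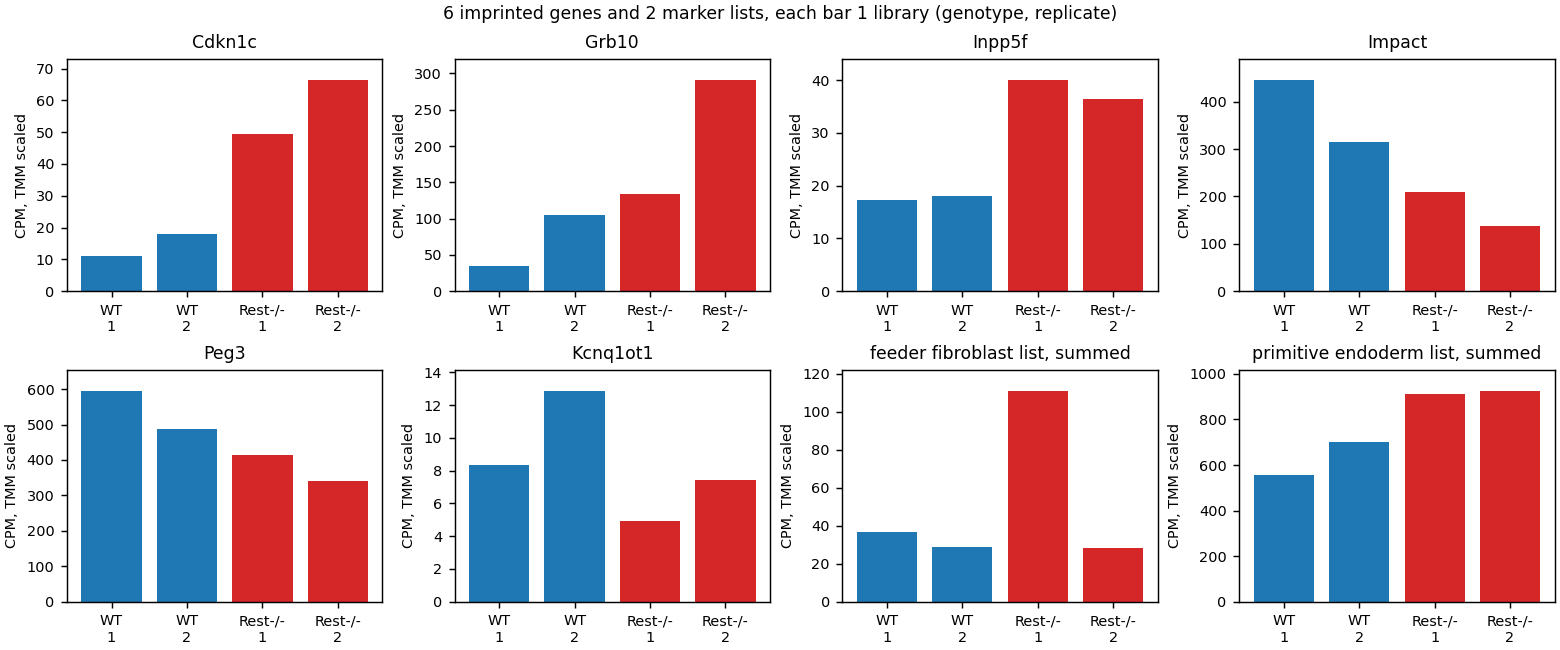
Levels of 6 imprinted genes and the summed levels of the feeder fibroblast and primitive endoderm markers, in TMM-scaled CPM from 0, with 1 bar for each library (blue WT, red Rest-/-). Cdkn1c, Grb10 and Inpp5f are higher in both Rest-/- libraries and Impact, Peg3 and Kcnq1ot1 lower, while the feeder sum is high in Rest-/- replicate 1 alone (111 CPM) and the endoderm sum is higher in both Rest-/- libraries.

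In the Peg3 cluster on proximal chromosome 7 all 3 genes had a log2 fold change below 0, from -0.62 to -0.52. Peg3, a zinc finger protein and one of the most abundant imprinted RNAs here, was at 595 and 486 CPM in WT and 415 and 341 CPM in Rest-/- libraries. The genotypes did not overlap, and the log2 fold change was -0.52 ± 0.18 (SE; edgeR quasi-likelihood adjusted p = 0.708). Usp29, a ubiquitin-specific peptidase that starts beside Peg3 on the other strand, was at 5.85 and 3.58 CPM in WT and 2.75 and 3.57 CPM in Rest-/- libraries. Both Rest-/- values were below both WT values, though replicate 2 was nearly level between the genotypes. Zim1, the maternally expressed zinc finger gene of the cluster, was at 2.00 and 1.23 CPM in WT and 1.24 and 0.858 CPM in Rest-/- libraries and overlapped.

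The promoters of Peg3 and Usp29 are printed because the genes start from nearly the same place on opposite strands: the 300-base windows of the pair share 263 bases. The window of Peg3 lies at chr7:6730370-6730669 on the minus strand of GRCm38.p6 (RefSeq) and holds 13 CpG, which are in capitals.
Peg3: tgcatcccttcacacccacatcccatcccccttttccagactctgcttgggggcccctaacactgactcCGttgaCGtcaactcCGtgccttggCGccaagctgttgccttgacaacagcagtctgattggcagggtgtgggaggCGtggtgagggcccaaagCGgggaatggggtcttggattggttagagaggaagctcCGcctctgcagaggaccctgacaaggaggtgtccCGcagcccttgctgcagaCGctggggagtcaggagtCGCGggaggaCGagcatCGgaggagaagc
That of Usp29 lies at chr7:6730333-6730632 on the plus strand and holds 17 CpG. Neither window holds the ZFP57 motif.

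In the Mest-Copg2 cluster on chromosome 6, Mest, an alpha/beta hydrolase fold protein of the embryonic mesoderm, was at 263 and 258 CPM in WT and 198 and 201 CPM in Rest-/- libraries. Its replicates differed by a few CPM, far less than the genotypes, and the log2 fold change was -0.38 ± 0.12 (SE; edgeR quasi-likelihood adjusted p = 0.656). Copg2, a coatomer subunit whose gene overlaps the end of Mest on the other strand, was at 68.5 and 106 CPM in WT and 58.3 and 92.4 CPM in Rest-/- libraries. It followed the replicate number more than the genotype, and without strand the reads in the overlap cannot be told apart. The second of 3 Mest starts is shown for its 2 copies of the ZFP57 motif, in capitals (RefSeq, GRCm38.p6, chr6:30737800-30738099, plus strand).
Mest: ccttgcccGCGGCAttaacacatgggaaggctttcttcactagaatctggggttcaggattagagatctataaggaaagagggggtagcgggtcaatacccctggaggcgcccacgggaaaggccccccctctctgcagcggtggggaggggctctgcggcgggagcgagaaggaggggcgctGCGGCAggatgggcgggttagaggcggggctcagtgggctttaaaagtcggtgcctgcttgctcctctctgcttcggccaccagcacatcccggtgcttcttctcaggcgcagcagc

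In the Snrpn-Ube3a cluster, 5 of 6 genes had a log2 fold change below 0, with a median of -0.29. Peg12, a Frat family protein of Wnt signalling, was at 7.53 and 10.9 CPM in WT and 5.11 and 5.33 CPM in Rest-/- libraries. The groups did not overlap, and the log2 fold change was -0.82 ± 0.30 (SE; edgeR quasi-likelihood adjusted p = 0.739). Ndn, which encodes the MAGE family protein necdin, had 652 and 640 counts in WT and 492 and 348 counts in Rest-/- libraries. It too was lower in both Rest-/- libraries after scaling, by a log2 fold change of -0.37 ± 0.21 (SE). Snrpn, for the spliceosomal protein SmN, was at a low level with 28 and 17 counts in WT and 16 and 8 counts in Rest-/- libraries, and was lower in both. The other MAGE gene, Magel2, was at 5.52 and 5.12 CPM in WT and 8.40 and 5.10 CPM in Rest-/- libraries and overlapped. So did Mkrn3, a makorin ring finger protein, at 14.2 and 10.5 CPM in WT and 11.5 and 9.75 CPM in Rest-/- libraries. Ube3a, the maternally expressed ubiquitin ligase of the cluster, was at 90.3 and 44.4 CPM in WT and 81.9 and 45.1 CPM in Rest-/- libraries, which is a difference by replicate number and not by genotype.

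In the Nnat-Blcap cluster on chromosome 2, Nnat, a small membrane protein of the developing nervous system, lies in an intron of Blcap. Nnat was at 16.7 and 44.1 CPM in WT and 48.1 and 59.4 CPM in Rest-/- libraries. The Rest-/- values were above both WT values, but WT replicate 2 lay closer to Rest-/- replicate 1 than to the other WT library, and the log2 fold change was 0.82 ± 0.49 (SE; edgeR quasi-likelihood adjusted p = 0.993). Leaving out WT replicate 1 moved it to 0.28, and leaving out WT replicate 2 to 1.69 (edgeR quasi-likelihood adjusted p = 0.0501). Blcap, another small membrane protein, was at 31.5 and 26.2 CPM in WT and 31.5 and 32.7 CPM in Rest-/- libraries. Its replicate 1 was level between the genotypes at this precision, though Blcap is counted among the 11 imprinted genes with both Rest-/- libraries above.

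The H19-Igf2 cluster showed the widest differences between replicates. H19, a long non-coding RNA, was at 181 and 416 CPM in WT and 126 and 366 CPM in Rest-/- libraries. Igf2, the fetal growth factor, was at 15.4 and 68.7 CPM in WT and 40.1 and 119 CPM in Rest-/- libraries. For both genes replicate 2 was well above replicate 1 in each genotype and the genotypes overlapped, with log2 fold changes of -0.28 ± 0.65 for H19 and 0.92 ± 0.87 for Igf2 (SE). Leaving out a library turned the sign of either gene, over a range from -1.25 to 0.44 for H19 and from -0.08 to 2.36 for Igf2. Such a fit leaves the replicate numbers unequal between the genotypes. At each replicate number the Rest-/- value was below the WT value for H19 and above it for Igf2. Igf2r, the receptor that clears IGF2, was at 148 and 214 CPM in WT and 134 and 184 CPM in Rest-/- libraries and also overlapped.

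**Figure D4:**
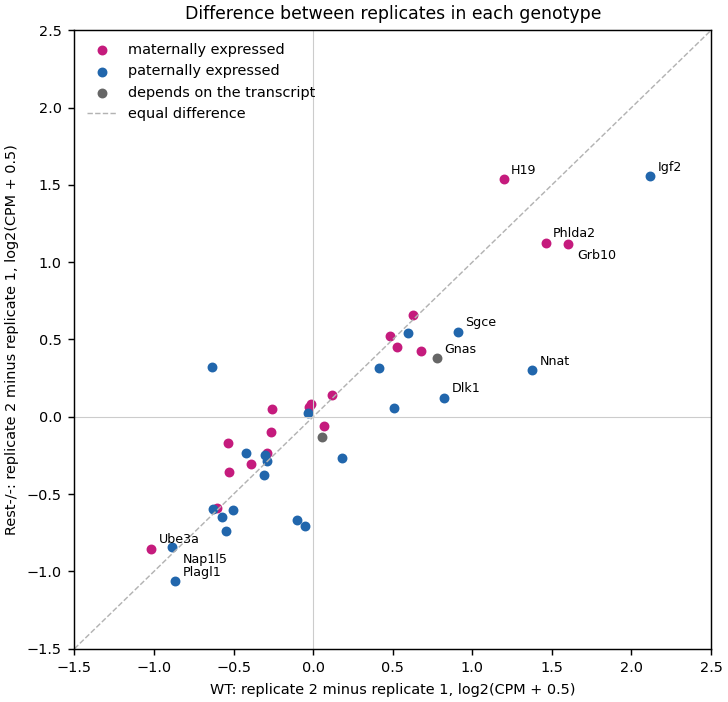
Difference of replicate 2 minus replicate 1 in log2(CPM + 0.5) in WT (horizontal) against the same in Rest-/- ESCs (vertical) for the 43 imprinted genes tested, coloured by expressed allele, with the dashed line for equal differences. Most genes lie near the line (r = 0.88, the same sign in 35 of 43), with H19, Igf2, Phlda2 and Grb10 at its upper end and Ube3a, Nap1l5 and Plagl1 at its lower end.

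The pattern of H19 and Igf2 held for the imprinted genes at large. Over the 43 tested, the difference between replicates in WT and in Rest-/- ESCs had Pearson's r = 0.88 and the same sign in 35 genes. The points share clusters and library depth, and all genes tested gave r = 0.81, so the value describes these libraries and not the list in particular. In WT the difference of replicate 2 minus replicate 1 was 2.12 for Igf2, 1.60 for Grb10, 1.46 for Phlda2, 1.38 for Nnat and 1.20 for H19 on the log2 scale. It was -1.02 for Ube3a, -0.89 for Nap1l5 and -0.87 for Plagl1. For each of these genes except Grb10 the gap was larger than the log2 fold change between the genotypes, and for Grb10 it was as large.

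In the Dlk1-Dio3 cluster on chromosome 12, the 3 maternally expressed non-coding RNAs were at like levels in both genotypes. Meg3 was at 295 and 194 CPM in WT and 296 and 197 CPM in Rest-/- libraries. Rian, which hosts small nucleolar RNAs and miRNAs, was at 189 and 144 CPM in WT and 183 and 148 CPM in Rest-/- libraries. Mirg, a host of miRNAs, was at 23.1 and 24.3 CPM in WT and 23.2 and 22.3 CPM in Rest-/- libraries. The log2 fold changes were 0.01 ± 0.30, -0.01 ± 0.20 and -0.06 ± 0.17 (SE), which leaves room for differences of the size of these errors. Of the paternally expressed genes, Dlk1, a Notch pathway ligand, was at 3.94 and 7.36 CPM in WT and 8.24 and 9.03 CPM in Rest-/- libraries. Its log2 fold change was 0.61 ± 0.39 (SE), and 0.23 to 1.13 with each library left out. It was the only gene of the cluster whose genotypes did not overlap, 1 of 6 (16.7%), near the 16.5% of all genes with both Rest-/- libraries above. Dio3, a deiodinase that inactivates thyroid hormone, was at 1.74 and 1.01 CPM in WT and 1.20 and 0.587 CPM in Rest-/- libraries. Rtl1, a retrotransposon-derived protein, was at 1.26 and 1.19 CPM in WT and 1.28 and 0.587 CPM in Rest-/- libraries. Both overlapped, and reads of Rtl1 and of the antisense RNA across it cannot be told apart without strand.

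Several of these genes carry miRNAs, whose mature sequences (RefSeq, GRCm38.p6, seed in capitals) are shown for H19 and Igf2, whose replicates differed widely, for Mest and Usp29, the hosts whose genotypes did not overlap, and for the 1 seed that is shared. The mature miRNAs were not measured. Mirg hosts 19 of them, Rian 6 and Meg3 3.
miR-675-5p in H19: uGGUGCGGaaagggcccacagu
miR-675-3p in H19: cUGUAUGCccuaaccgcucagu
miR-483-5p in Igf2: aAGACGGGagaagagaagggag
miR-483-3p in Igf2: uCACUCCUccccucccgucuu
miR-335-5p in Mest: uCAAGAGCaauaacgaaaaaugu
miR-335-3p in Mest: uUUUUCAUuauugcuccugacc
miR-3099-5p in Usp29: cCAGCUUCcuuccagcccuug
miR-3099-3p in Usp29: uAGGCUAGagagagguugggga
miR-453 in Mirg: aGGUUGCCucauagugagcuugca
miR-496a-5p in Mirg: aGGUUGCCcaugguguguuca
The last pair has the seed GGUUGCC in common, and no other hosted miRNAs shared one.

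In the Peg10-Sgce cluster on chromosome 6 all 4 genes had a log2 fold change above 0, with a median of 0.12. Peg10, a retrotransposon-derived protein of the placenta and the most abundant imprinted RNA here in CPM, was at 932 and 1243 CPM in WT and 1392 and 1737 CPM in Rest-/- libraries. Both Rest-/- libraries were above both WT libraries, with a log2 fold change of 0.52 ± 0.21 (SE; edgeR quasi-likelihood adjusted p = 0.774). Sgce, epsilon-sarcoglycan, which shares the control region of Peg10, was at 7.82 and 15.1 CPM in WT and 10.3 and 15.3 CPM in Rest-/- libraries. Ppp1r9a, a partner of protein phosphatase, was at 51.5 and 42.8 CPM in WT and 51.4 and 48.0 CPM in Rest-/- libraries. Sgce and Ppp1r9a overlapped between the genotypes. The low-level genes Asb4, an ankyrin repeat protein of this cluster, and Nap1l5, a nucleosome assembly protein elsewhere on the chromosome, had 8 to 43 counts in each library and overlapped as well.

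The remaining genes overlapped between the genotypes. Zrsr1, a splicing factor gene within an intron of Commd1, was at 51.5 and 33.1 CPM in WT and 43.0 and 28.3 CPM in Rest-/- libraries. Commd1, a COMM domain protein, was at 54.8 and 76.7 CPM in WT and 49.0 and 70.5 CPM in Rest-/- libraries. Reads of this pair cannot be told apart where they overlap. Plagl1, a zinc finger transcription factor, was at 14.8 and 7.88 CPM in WT and 22.7 and 10.6 CPM in Rest-/- libraries, the genotypes differing by less than the replicates. Slc38a4, an amino acid transporter, was at 263 and 213 CPM in WT and 271 and 228 CPM in Rest-/- libraries, a like level in both. Gnas, for the stimulatory G protein alpha subunit and other products, was at 136 and 233 CPM in WT and 200 and 261 CPM in Rest-/- libraries. Rasgrf1, a Ras exchange factor of neurons, had 1 and 3 counts in WT and 2 and 1 counts in Rest-/- libraries, at or under the floor in each.

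REST binds the RE1 element. The mm9 genome was searched on both strands for TTCAGCACC followed by GGACAGC after a gap of 2 bases, at 14 or more of 16 letters, a threshold set after a stricter one had been seen, and held 2790 matches. A match lay within 1 kb of the start of 2 of the 43 imprinted genes with a position on mm9 (4.65%), Rasgrf1 and Gnas. That was so for 0.799% of all 33524 annotated genes and for 1.22% of the 12670 tested genes with a position. Of the 2 imprinted genes only Gnas passed the filter on low counts. Within 20 kb the same 2 genes were found (4.65%), against 6.49% of annotated genes and 8.57% of tested genes. No other imprinted gene with a position had a match in that window. The match of Rasgrf1, at chr9:89804429-89804446 on the minus strand of mm9, lay 176 bases from the start. That of Gnas, at chr2:174109017-174109034 on the plus strand, lay 796 bases from the first annotated start. The matched letters are in capitals.
Rasgrf1: TTCAGCAgCgcGGACAGg
Gnas: TTCAGCACCtaGaACAGa
Rasgrf1 stayed at the floor in both genotypes, and the absence of these letters elsewhere says nothing of binding by the factor.

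The genes that keep imprints were listed as a group of 16, and 0 of them passed the quasi-likelihood test of edgeR, 2 at an unadjusted p under 0.05, and 0 by its exact test with tag-wise dispersion, with 6 above 0 and 10 below and a median log2 fold change of -0.04. The share at an unadjusted p under 0.05 was 12.5%, against 6.71% of all genes. The largest values were those of Dnmt3a (0.78), a de novo DNA methyltransferase, and Dppa3 (0.59), which guards the maternal genome from demethylation. The lowest were those of Uhrf1 (-0.38), the cofactor of DNMT1, and Hells (-0.25), a chromatin remodeller. Dnmt3a was at 136 and 166 CPM in WT and 244 and 273 CPM in Rest-/- libraries, and Uhrf1 at 505 and 492 CPM in WT and 366 and 401 CPM in Rest-/- libraries. In all, 3 of the 16 had both Rest-/- libraries above both WT libraries (18.8%) and 2 had both below (12.5%), against 16.5% and 15.4% of all genes. Dnmt1 was at 571 and 599 CPM in WT and 569 and 597 CPM in Rest-/- libraries, and Trim28 at 1663 to 1703 CPM, both at like levels. Zfp57 followed the replicate number, at 543 and 215 CPM in WT and 432 and 219 CPM in Rest-/- libraries.

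A second list of 27 other imprinted genes had 26 in the table and 17 past the filter, of which 0 passed the quasi-likelihood test of edgeR, 1 at an unadjusted p under 0.05, and 0 by its exact test with tag-wise dispersion. The share at an unadjusted p under 0.05 was 5.88%, near the 6.71% of all genes. Of the 17, 12 were above 0 and 5 below, with a median log2 fold change of 0.17. Pon2, a lactonase near Peg10, was at 9.50 and 6.91 CPM in WT and 20.4 and 16.3 CPM in Rest-/- libraries, and Calcr, the calcitonin receptor of the same cluster, was at 0.775 and 0.560 CPM in WT and 1.59 and 1.08 CPM in Rest-/- libraries. Their log2 fold changes were 1.16 ± 0.28 and 0.99 ± 0.44 (SE), and for both the Rest-/- libraries lay above the WT libraries. The lowest values were those of the non-coding RNA Peg13 (-0.65) and of Mcts2 (-0.15).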

How the data were processed

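RNA was measured in 2 WT and 2 Rest-/- ESC libraries. The authors made indexed TruSeq libraries from total RNA, aligned the reads with Subread and counted them per gene by featureCounts, with mm9 named in the submitters' processing notes. The deposited values are whole-number counts per Entrez identifier, not normalized. The tool versions, the annotation and the strand setting are not given in the sources used here. The 368 rows without an identifier were left out.

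Counts were compared with edgeR 4.0.16 in R 4.3.3 (TMM, filterByExpr, quasi-likelihood test, no block, prior count 0.125, Benjamini-Hochberg adjusted p under 0.05 over 15444 genes). The fit was first tested on simulated counts. These had the same dispersion for all genes and no shift by replicate number, unlike these libraries, so they do not measure its power here. Medians of lists are descriptions with no test. Other settings tried were scaling by RLE or by library size alone, no filter or a minimum of 10 counts in every library, edgeR's exact test with dispersion per gene (tag-wise) or in common, DESeq2 1.42.0, a block for the replicate number, prior count 2, and each library left out in turn. One more, the non-overlapping counts without Rest-/- replicate 1, was added after seeing the data.

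The members and lists were chosen with earlier results of these data known. Expressed alleles, clusters and germline regions were assigned from general knowledge. Every member is reported, with all 4 libraries for those at 1 CPM or more in a genotype, and the 2 highest and 2 lowest log2 fold changes of the lists of imprint maintenance and other imprinted genes. Dnmt1, Trim28, Zfp57, Kcnq1 and the single cell type markers were named after their values were seen. Promoters and miRNAs came from RefSeq (GRCm38.p6), and positions from GENCODE M1 on mm9, which had 43 of 44 members (not Kcnq1ot1). The replicates are called biological, and where no source says that they were separate cultures the p-values measure only the spread between these samples.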

Additional observations from a re-analysis of the deposited data

How the results depend on the processing

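The number of genes called, 9 in the quasi-likelihood test of edgeR, was 53 with no filter on low counts, 3 with at least 10 counts in every library, 277 with the exact test and tag-wise dispersion, 343 with common dispersion, 238 with DESeq2, and between 60 and 113 with each library left out. Imprinted genes called, 0 there, were 3 with tag-wise dispersion, 2 with common dispersion (Cdkn1c and Grb10), 3 with DESeq2 and 0 to 2 with a library left out: Cdkn1c and Grb10 without WT replicate 2, and Cdkn1c without Rest-/- replicate 1. With the replicate number as a block, 2621 genes (17.0%) and 18 imprinted genes (41.9%) were called, which were H19, Igf2, Peg3, Peg10, Mest, Copg2, Peg12, Kcnq1ot1, Cdkn1c, Phlda2, Ascl2, Grb10, Ddc, Plagl1, Impact, Nnat, Gnas and Inpp5f. The labels link no libraries across genotypes and there were 2 numbers only. The median log2 fold change with each library left out ran from -0.0585 to 0.13 for the imprinted genes, from 0.0855 to 0.21 for the maternal and from -0.41 to -0.0787 for the paternal class, and the cause was not tested. Of 557 alternative values of single imprinted genes, 496 kept their direction and their side of the threshold, 29 newly passed it and 32, in 19 genes, changed sign, 31 of them when a library was left out, where one genotype had 1 library assumed to vary like the other genotype. The ranges with a library left out were H19 -1.25 to 0.44, Igf2 -0.075 to 2.36, Igf2r -0.44 to 0.10, Sgce -0.25 to 0.71, Ppp1r9a -0.050 to 0.21, Asb4 -0.19 to 0.38, Copg2 -0.59 to 0.14, Nap1l5 -1.40 to 0.43, Magel2 -0.056 to 0.65, Mkrn3 -0.42 to 0.015, Ube3a -0.57 to 0.51, Meg3 -0.31 to 0.34, Rian -0.19 to 0.19, Rtl1 -1.05 to 0.052, Plagl1 -0.090 to 1.07, Zrsr1 -0.58 to 0.10, Commd1 -0.43 to 0.13, Gnas -0.021 to 0.76 and Slc38a4 -0.075 to 0.22. Rian was also at 0.0048 with library-size scaling. The precision of every value is limited by 2 libraries a genotype.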
